A study of Rattus norvegicus with 8 samples.

Results

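AP-1 is a transcription factor made of pairs of Fos and Jun proteins, and its 7 subunit genes Fos, Fosb, Fosl1, Fosl2, Jun, Junb and Jund were followed in the rat cell line PC12 under forskolin and in its control. The genes were taken through every probe set annotated to 1 of these symbols alone. There were 13 such probe sets among 31142, which carry 13810 gene symbols in all, namely 11 on chip A, where every gene had at least 1, and 2 on chip B, for Fosl2 and Jund. No probe set that carried several symbols included a member. PC12 is a line grown from a rat pheochromocytoma, a tumour of the adrenal medulla. Forskolin, a diterpene from a plant root, switches on adenylyl cyclase and so raises cyclic AMP. Total RNA was measured on 8 arrays, 4 of chip A and 4 of chip B, and on each chip 2 arrays had forskolin and 2 had no forskolin. The series title calls the control inactive. The sources used here give no dose, time of exposure or vehicle, and all groups are the same cell line. Whether replicates are separate cultures is not stated in the labels, so p-values measure only the spread between these arrays, which may be technical.

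Fos proteins cannot pair with themselves and bind DNA as partners of Jun proteins, whereas Jun proteins can also pair with each other. Both families hold together through a leucine zipper and bind the AP-1 site with the basic region beside it. Their genes belong to the immediate early genes, which cells switch on from existing factors without new protein synthesis. In PC12 cells cyclic AMP acts through protein kinase A on CREB, which binds the cyclic AMP response element (CRE) of promoters. Fos, Fosb and Jun carry strong activation domains, Fosl1 and Fosl2 (Fra-1 and Fra-2) lack one, and Junb and Jund can oppose or replace Jun depending on their partner.

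The start regions of the genes were searched in the RefSeq promoter table of rat (GRCr8), which held 5 of the 7 members, Fosb, Fosl1, Fosl2, Junb and Jund. The 250 bases before the annotated start were searched on both strands for the CRE (TGACGTCA), its core (TGACG, which every CRE also holds), the AP-1 site (TGACTCA), the E box (CACGTG), the GC box (GGGCGG), the TATA box (TATAAA) and the CArG box of serum response factor. The core was found in 3 of the 5 members (Fosl1, Junb and Jund), against 18.2% of 33469 promoters in the table, and the full CRE in Jund only, against 1.59%. The 3 windows with a core are shown. Of these genes Junb and Fosl1 rose with forskolin, and Jund, with the full CRE, was not called. Fosl2 also rose, with neither the CRE nor its core in its window. A link between motifs and changes was not tested. Capitals mark every CRE or CRE core on either strand, so that a match on the other strand reads CGTCA. Each sequence runs 5′ to 3′ along the gene's strand.

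Junb (GRCr8 chr19:40080876-40081125, plus strand): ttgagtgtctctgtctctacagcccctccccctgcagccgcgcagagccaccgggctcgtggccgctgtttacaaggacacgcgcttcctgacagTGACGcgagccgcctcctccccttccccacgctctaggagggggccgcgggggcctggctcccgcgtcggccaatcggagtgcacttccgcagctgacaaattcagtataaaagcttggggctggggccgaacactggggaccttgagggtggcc
Fosl1 (GRCr8 chr1:212183635-212183884, plus strand): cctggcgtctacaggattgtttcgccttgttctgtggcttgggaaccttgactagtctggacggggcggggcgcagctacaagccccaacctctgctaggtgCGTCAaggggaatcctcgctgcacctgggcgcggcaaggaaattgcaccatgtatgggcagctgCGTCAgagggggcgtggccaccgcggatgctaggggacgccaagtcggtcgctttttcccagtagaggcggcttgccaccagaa
Jund (GRCr8 chr16:18769772-18770021, minus strand): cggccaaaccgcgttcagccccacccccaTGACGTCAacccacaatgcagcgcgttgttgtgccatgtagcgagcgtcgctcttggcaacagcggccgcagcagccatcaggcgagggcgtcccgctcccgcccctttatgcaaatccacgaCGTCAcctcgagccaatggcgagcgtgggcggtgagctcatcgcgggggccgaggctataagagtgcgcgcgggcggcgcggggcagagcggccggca

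Junb had 1 core, at -155 to -151 from its start, and a TATA box at -49 to -44. Fosl1 had 2 cores, at -148 to -144 and -84 to -80, both on the other strand. Jund had its CRE at -221 to -214 and a further core at -98 to -94. The window of Fosb lies within the annotated span of the gene, because the table takes the start of 1 transcript. What that window holds or lacks therefore does not describe the start of other Fosb transcripts. The windows of Fosl2 and Fosb held neither the CRE nor its core, and no AP-1 site, CArG box or E box was found in any of the 5 windows. Among all promoters 4.05% held the AP-1 site, 1.50% the CArG box and 5.59% the E box. The GC box was found in 3 of the 5 windows (Fosl1, Fosl2 and Jund), against 30.5% of all promoters. The TATA box was found in 2 (Junb and Fosb), against 12.9%. A match is a description of the letters, not evidence of binding.

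**Figure D1:**
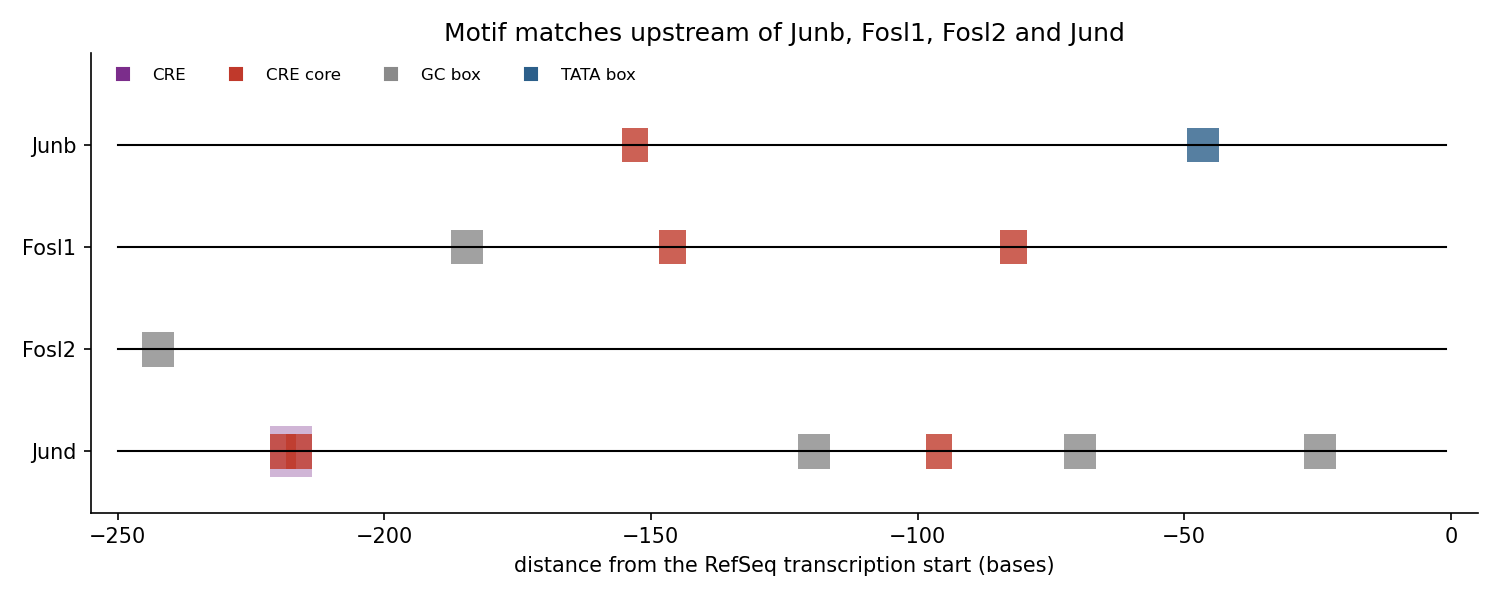
Positions of motif matches in the 250 bases before the RefSeq start of Junb, Fosl1, Fosl2 and Jund; the x axis is the distance from the start in bases and each coloured box is 1 match on either strand. Junb has 1 CRE core, Fosl1 has 2, Fosl2 has none, and Jund has the full CRE with a further core nearer its start.

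The arrays of each chip were on 1 scale, with medians from 8.15 to 8.17 (log2) on chip A and 6.77 to 6.79 on chip B. Forskolin was compared with no forskolin separately on each chip with limma, over probe sets at or above the 30th percentile of mean linear level, which kept 11106 of 15866 for chip A and 10693 of 15276 for chip B. A probe set was called at a Benjamini-Hochberg adjusted p under 0.05, and "rose" and "fell" are used for calls. Among all tested probe sets 3.30% were called on chip A, 2.03% higher and 1.26% lower, but only 0.159% on chip B, 0.150% higher and 0.00935% lower. The median standard error of a change was 0.04 (log2) on chip A and 0.09 on chip B. Of 11 markers of adrenal medulla on the chips 9 lay above the filter and 5 above the 90th percentile, Th, Chgb, Phox2a, Syt1 and Gata2, while Dbh and Slc18a1 lay below the filter. Phox2a and Gata2 were called higher with forskolin in the fit with no filter. Of 21 markers of other cell types (fibroblasts, glia, steroid-making cortex, blood cells and endothelium) 9 lay above the filter and none was called by limma with no filter. The fibroblast gene Col3a1 was bright (98.0th percentile) in these cells.

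With forskolin, Fos, Fosl1, Fosl2 and Junb rose on chip A, and Jun fell. Fos was 16.4-fold higher on 1 of its 2 probe sets, from a dim baseline, and 1.04-fold higher without a call on the other. Junb rose 3.05-fold, Fosl1 1.87-fold and Fosl2 1.49-fold. Fosb was below the brightness filter and was 1.70-fold higher in the fit with no filter. Jun fell 1.29-fold and 1.20-fold on 2 of its 3 probe sets. Jund was not called on any of its 3 probe sets. Of the 11 probe sets on chip A, 8 were tested and 3 lay below the filter. Of the 8, 4 rose, 2 fell (both of Jun) and 2 were not called, where 2.03% of all tested rose and 1.26% fell. The tested Fos probe set that rose passed the filter through its forskolin arrays alone, so the count of called members is a description. Both groups were apart on 9 of the 11, with forskolin higher on 6 and lower on 3, where 20.4% and 28.0% of tested probe sets lay apart in these directions. The median change of the 11 was 0.09 (log2), against -0.01 for the 11106 tested. The 11 include the 3 below the filter, while the shares and the -0.01 cover tested probe sets only.

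**Figure D2:**
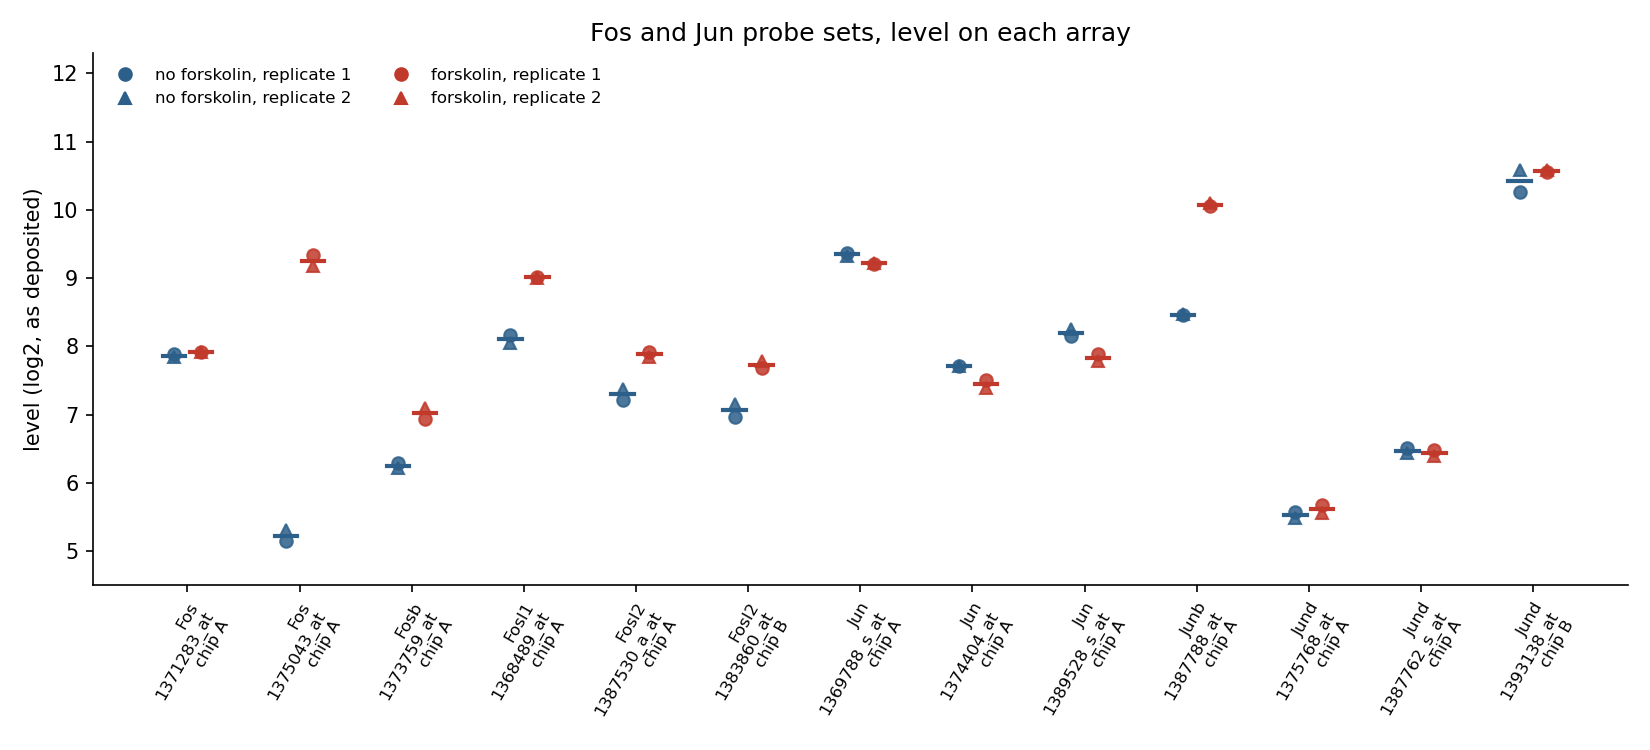
Level of each of the 13 Fos and Jun probe sets on each array (y axis, log2 as deposited), with a bar at the mean of each pair of arrays; chips A and B were scaled separately and levels of different probe sets are not comparable. The Fos probe set 1375043_at moves from 5.22 to 9.25 on average and Junb from 8.46 to 10.07, while the arrays of the Jund probe sets overlap.

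Fos encodes c-Fos, the founding member of the family and a classic target of CREB and serum response factor. Probe set 1375043_at measured 5.14 and 5.30 (log2) on the no forskolin arrays and 9.34 and 9.17 on the forskolin arrays. The lower forskolin array lay 3.87 above the higher control array. The change was 4.03 ± 0.07 (log2, SE, n = 2 per group), with a 95% interval of 3.87 to 4.20 and a limma adjusted p of 1.96e-08. By size it ranked 2 among the 11106 changes on chip A, between a Dusp1 probe set (4.17) and one of Nr4a3 (3.53). Without forskolin its level stood at the 7.4th percentile of the chip and below the lowest mean linear level that the filter kept (7.02 as log2), so the size of the rise depends on a baseline whose distance from background is unknown.

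The other Fos probe set, 1371283_at, measured 7.88 and 7.85 on the no forskolin arrays and 7.92 on both forskolin arrays. The forskolin arrays were the higher ones by 0.04 at the closest, and the change was 0.06 ± 0.04 (log2, SE, n = 2 per group; limma adjusted p = 0.519). Its 95% interval was -0.04 to 0.16. The changes of the 2 Fos probe sets differed by 3.97 ± 0.13 (log2, SE over arrays). The Fos rise thus rests on 1 of its 2 probe sets, and what the other one detects was not tested.

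Fosb encodes an activator close to c-Fos, whose short splice form is known from chronically stimulated neurons. Its probe set 1373759_at measured 6.29 and 6.22 without forskolin and 6.94 and 7.10 with it. The groups did not overlap, although the mean level was only at the 24.7th percentile of the chip. The fit with no filter gave a change of 0.77 ± 0.06 (log2, SE, n = 2 per group; limma adjusted p = 4.76e-04), where 1.37% of 15866 probe sets were called higher. How far such a level lies above background is unknown.

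Fosl1 encodes Fra-1, a Fos protein that is itself known as a target of AP-1. Probe set 1368489_at measured 8.17 and 8.05 without forskolin and 9.02 and 9.00 with it. The groups lay 0.84 apart at the closest. The change was 0.90 ± 0.05 (log2, SE, n = 2 per group), with a 95% interval of 0.79 to 1.02 and a limma adjusted p of 1.53e-05. It ranked 47 among the rises of chip A.

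Fosl2 encodes Fra-2 and was the Fos gene measured on both chips. On chip A, probe set 1387530_a_at measured 7.21 and 7.38 without forskolin and 7.91 and 7.84 with it, a change of 0.58 ± 0.06 (log2, SE, n = 2 per group; limma adjusted p = 0.00113). On chip B, probe set 1383860_at measured 6.97 and 7.16 without forskolin and 7.68 and 7.79 with it, a change of 0.67 ± 0.09 (log2, SE, n = 2 per group). On each chip the lower forskolin array exceeded the higher control array, by 0.46 and 0.52; on chip B 10.4% of tested probe sets lay apart with forskolin higher and 22.2% with it lower. The chip B change ranked 23 among 10693 but was not called (limma adjusted p = 0.0885). It was called under quantile normalization (limma adjusted p = 0.0344), without no forskolin replicate 1 (0.0271) and without no forskolin replicate 2 (0.00383), and over its alternatives the adjusted p ran from 0.00383 to 0.410.

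Junb encodes a Jun protein that can oppose c-Jun, and it showed the largest change among the Jun genes. Probe set 1387788_at measured 8.46 and 8.47 without forskolin and 10.05 and 10.10 with it. The replicates differed by far less than the groups, which lay 1.57 apart at the closest. The change was 1.61 ± 0.04 (log2, SE, n = 2 per group), with a 95% interval of 1.52 to 1.70 and a limma adjusted p of 1.07e-07. It ranked 14 among the rises of chip A.

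Jun encodes c-Jun, the usual partner of c-Fos and the substrate that gives the Jun N-terminal kinases their name. Among all tested probe sets on chip A, 28.0% had both forskolin arrays below both control arrays. The 3 Jun probe sets there all measured lower with forskolin, and each lay apart in this way. The brightest, 1369788_s_at, measured 9.37 and 9.33 without forskolin and 9.21 and 9.22 with it, a change of -0.13 ± 0.04 (log2, SE, n = 2 per group) that was not called (limma adjusted p = 0.132). Probe set 1374404_at measured 7.71 on both control arrays and 7.50 and 7.39 with forskolin, and fell by 0.27 on the log2 scale (limma adjusted p = 0.0319). Probe set 1389528_s_at measured 8.15 and 8.25 without forskolin and 7.89 and 7.78 with it, and fell by 0.36 (limma adjusted p = 0.0105).

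The called Jun probe sets are annotated to the same source sequence, so they are not independent measurements of Jun. The ending _s_at marks probes that can match more than 1 transcript. The call of 1374404_at was lost without forskolin replicate 2 (-0.21, limma adjusted p = 0.139) and with no filter (0.0547). With the replicate number as a block neither was called, at limma adjusted p = 0.105 for 1374404_at and 0.0843 for 1389528_s_at. Neither was tested under the stricter filter, where both lie below it. Over all alternatives that could be run, the change stayed between -0.32 and -0.21 for 1374404_at, between -0.42 and -0.30 for 1389528_s_at, and between -0.15 and -0.12 for 1369788_s_at. The falls of the called Jun probe sets ranked 64 and 28 among the falls of chip A.

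Jund encodes the Jun protein that is known for steady expression in resting cells. On chip A, probe set 1375768_at measured 5.57 and 5.48 without forskolin and 5.67 and 5.56 with it, and probe set 1387762_s_at measured 6.51 and 6.43 without it and 6.48 and 6.39 with it. Both lay below the filter, and their groups overlapped. In the fit with no filter their changes were 0.09 ± 0.06 and -0.04 ± 0.05 (log2, SE, n = 2 per group), with 95% intervals of -0.04 to 0.22 and -0.16 to 0.09. On chip B, Jund probe set 1393138_at was bright, at the 99.4th percentile of the chip. It measured 10.26 and 10.58 without forskolin and 10.56 and 10.58 with it, so that 1 control array stood apart from the other 3 arrays. The change was 0.15 ± 0.11 (log2, SE, n = 2 per group; limma adjusted p = 0.993), with a 95% interval of -0.12 to 0.42. Without no forskolin replicate 1 the change was -0.0051, and without no forskolin replicate 2 it was 0.31 (limma adjusted p = 0.210).

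**Figure D3:**
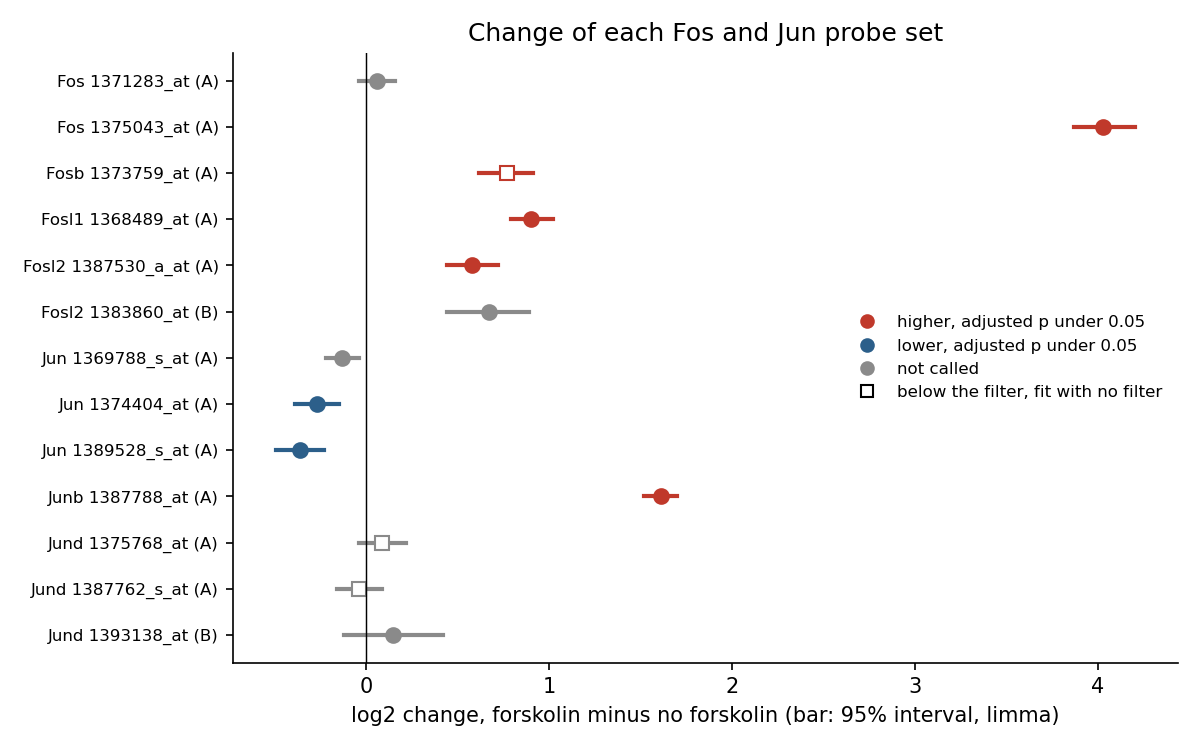
Change of each Fos and Jun probe set (x axis, log2, forskolin minus no forskolin) with its 95% interval from limma; filled circles were tested, open squares lay below the filter and come from the fit with no filter, and the letter in brackets is the chip. The Fos, Fosb, Fosl1, Fosl2 and Junb intervals lie above 0 except for Fos 1371283_at, the Jun intervals lie below 0 (1369788_s_at without a call), and the 3 Jund intervals include 0.

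The order of the changes on chip A, taking for each gene its probe set with the smallest p, was Fos, Junb, Fosl1, Fosb, Fosl2, Jund and Jun. Choosing by p in this same contrast favours the larger change of a gene, and the other Fos probe set, 1371283_at, changed by only 0.06 (log2). The places of Fosb and Jund in the order rest on probe sets below the filter, and the size for Fos on its dim baseline. Within single arrays, Fos rose by 2.42 ± 0.13 (log2, SE over arrays) more than Junb, and Junb by 0.71 ± 0.08 more than Fosl1. The neighbours Fosl1 and Fosb differed by 0.14 ± 0.09 with arrays that did not overlap, and Fosb and Fosl2 by 0.19 ± 0.16 with arrays that overlapped. Fosl1 and Fosl2 differed by 0.32 ± 0.15. The change of Jun, through 1389528_s_at, lay 1.97 ± 0.10 below that of its relative Junb. The brightest Jun probe set, 1369788_s_at, changed by less (-0.13, not called). In all, 26 pairs were compared, 5 within a gene and 21 between genes, by a two-sided exact permutation test over arrays. The smallest p that 2 against 2 arrays allow is 0.333, and 25 pairs reached it (adjusted p = 0.346), with 0.667 for Fosb against Fosl2. No difference between members could therefore pass a threshold of 0.05 by this test.

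**Figure D4:**
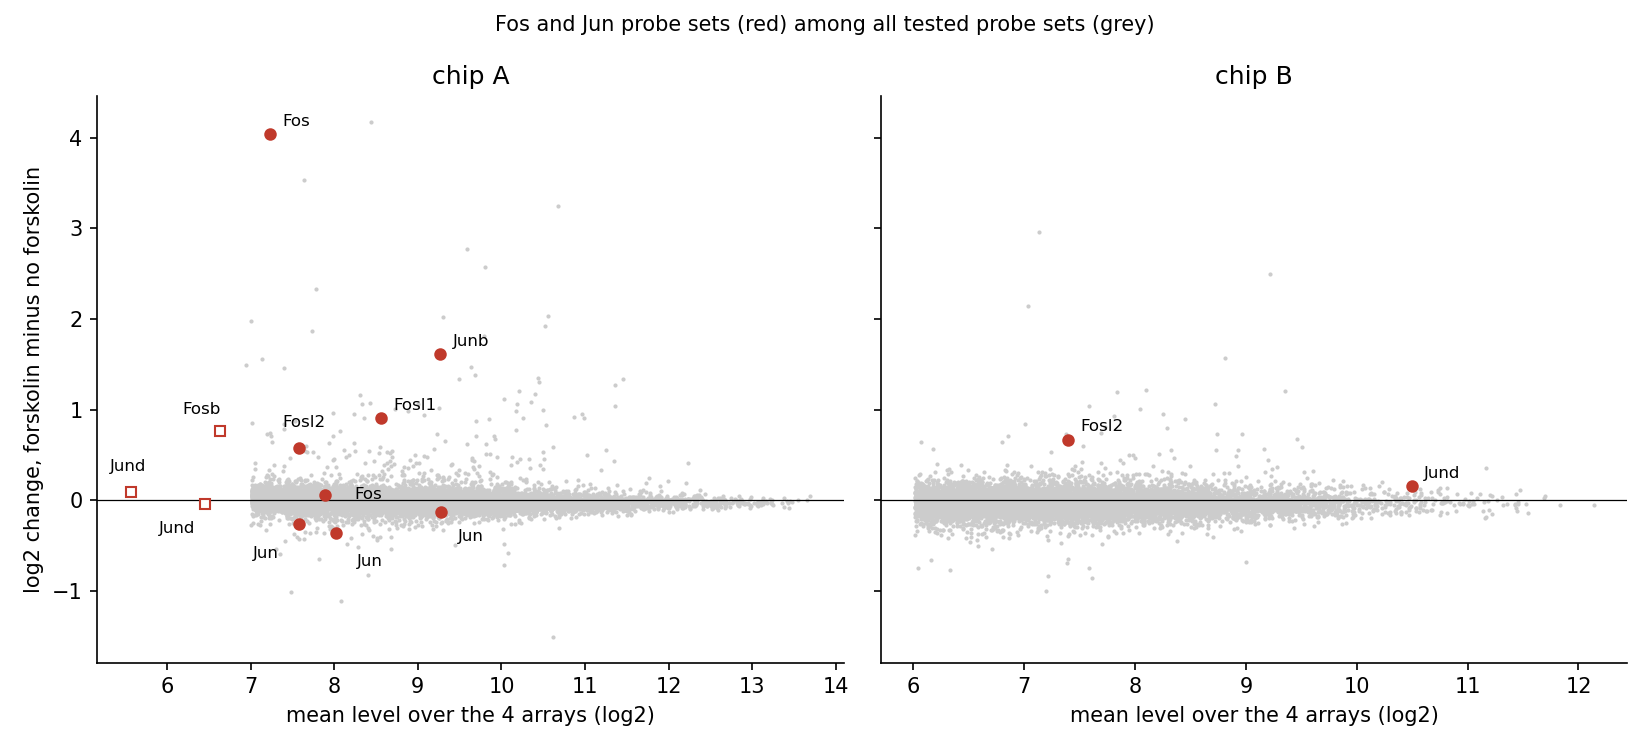
Change with forskolin (y axis, log2) against mean level over the 4 arrays of the chip (x axis, log2); grey points are all tested probe sets, red circles the tested Fos and Jun probe sets, and open squares those below the filter. On chip A only a Dusp1 probe set (4.17) lies above Fos at 4.03, and the Fos probe set at 0.06 lies within the body of the points.

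Likeness was measured over the 4 arrays of chip A as the Euclidean distance between log2 values, each taken from the probe set's own control mean. It rests mostly on the size of the change, and smaller is more alike. Each gene entered through its nearest probe set. Nearest to Fos were the MAP kinase phosphatase gene Dusp1 (distance 0.26, change 4.17), then the nuclear receptor genes Nr4a3 (0.81, 3.53) and Nr4a1 (1.80, 2.77). The Dusp1 and Nr4a3 probe sets, like that of Fos, passed the filter through their forskolin arrays alone. The brightest Dusp1 probe set changed by 3.24, and another Nr4a3 probe set on chip A by 0.53. Nearest to Junb were the bradykinin receptor gene Bdkrb2 (distance 0.19), the stress-response gene Ier3 (0.24) and Rgs2 (0.24), a regulator of G protein signalling. Fosl1 was nearest to Azin1 (distance 0.06), which stabilises ornithine decarboxylase, to the synaptic immediate early gene Arc (0.08) and to Crem (0.09). Fosl2 was nearest to the transcription factor gene Sox4 (distance 0.06), the BMP signal carrier Smad1 (0.08) and the insulin receptor substrate Irs2 (0.08). Jun, through 1389528_s_at, was nearest to Etfbkmt, Cyb5b and Paip2b (distances 0.07, 0.08 and 0.08), whose changes were -0.35, -0.32 and -0.32 (log2).

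Lists of genes around AP-1 were read through the brightest tested probe set of each gene, mostly on chip A. All lists were chosen with earlier results of these data known, so their shares only describe them. Beside the 2.03% called higher and 1.26% called lower there, limma gave 7.10% of all tested probe sets an unadjusted p under 0.05 with a higher level and 10.3% with a lower one, and on chip B 1.64% and 3.33%.

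Fos and Jun proteins also pair with some other basic leucine zipper proteins. The list held 26 basic leucine zipper genes of the ATF, CREB, Maf and other families, not all of them partners of Fos or Jun. Of these 18 were tested, and 3 (16.7%, against 2.03% of all on chip A) rose and none fell by limma. At an unadjusted limma p under 0.05, 6 (33.3%, against 7.10% of all on chip A) had a higher level and none (against 10.3%) a lower one. Of these Maff was read on chip B, where the share of all with a higher level was 1.64%. Crem, a CREB relative that includes the repressor ICER among its products, measured 8.23 and 8.12 without forskolin and 9.00 and 9.10 with it on its brightest probe set on chip A, a 1.84-fold rise. Its probe sets on chip B rose by 2.49 and 2.15 (log2), the second from a control level just below the filter. Mafk, a small Maf protein, rose 1.28-fold, and Atf4, a factor of the amino acid stress response, 1.17-fold. The median change of the list was 0.03 (log2), and the other 15 genes, Creb1 (-0.01) and Atf2 (0.04) among them, were not called. Creb1 and Atf2 were named after their values were seen.

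The next list holds genes that lie upstream of AP-1. Of 33 listed kinases, serum response factor partners and coactivators, 24 were tested, and limma called only Mef2d, a MADS box factor, higher (1.21-fold) and none lower; 2 had an unadjusted p under 0.05 and a higher level, and none a lower one. The 1 call is 4.17% of the list, near the 2.03% of all probe sets on chip A, and the share at an unadjusted p, 8.33%, is near the 7.10% of all. The limma adjusted p of this Mef2d probe set was 0.0147, and its other probe set rose by 0.53 (log2). Without forskolin replicate 2, and with the replicate number as a block, no gene of the list was called on its brightest probe set. Map3k1, a kinase upstream of the Jun kinases, measured 0.13 ± 0.04 (log2, SE, n = 2 per group; limma adjusted p = 0.139). The serum response factor gene Srf measured -0.06 and the Jun kinase gene Mapk8 0.11, neither called and both named after their values were seen. The median was 0.04 (log2).

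Among 16 listed genes of Fos and Jun turnover 11 were tested, of which 2 (18.2%, against 2.03% of all on chip A) rose and none fell by limma. With an unadjusted limma p under 0.05, 3 (27.3%, against 7.10%) had a higher level and none (against 10.3%) a lower one. Zfp36, which encodes tristetraprolin, a protein that speeds the decay of AU-rich messages such as that of Fos, measured 8.33 and 8.50 without forskolin and 8.95 and 8.97 with it, a 1.46-fold rise (limma adjusted p = 9.71e-04). Its relative Zfp36l2 rose 1.14-fold (limma adjusted p = 0.0238), with 0.24 (log2, not called) on its other probe set. Only 1 gene of this list was called when forskolin replicate 1, forskolin replicate 2 or no forskolin replicate 1 was left out, in the fit without a trend, and with the replicate number as a block. The median was 0.01 (log2).

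None of 19 tested textbook AP-1 target genes, of 39 listed, was called by limma on its brightest probe set; 6 (31.6%, against 7.10% of all on chip A) had an unadjusted p under 0.05 and a higher level, and none (against 10.3%) a lower one. Their changes ran from -0.19 to 0.13 (log2). The cell cycle inhibitor gene Cdkn1a measured 0.13 ± 0.04 (log2, SE, n = 2 per group; limma adjusted p = 0.106), while its other probe set rose by 0.30 (limma adjusted p = 0.0173). Hmox1, which encodes the heme-degrading heme oxygenase, measured 0.11 (limma adjusted p = 0.147). No source used here gives the time of exposure.

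The other immediate early genes provide the setting for the AP-1 subunits. Their list was chosen with earlier results of these data known, so its counts are a description. Of 30 listed, 24 were tested, and 18 (75%, against 2.03% of all on chip A) rose and 1 (4.17%, against 1.26%) fell, with a median of 0.79 (log2), against -0.01 for all that was tested on chip A. Of them Dusp1, Nr4a3 and Nr4a1 rose 9.48-fold, 11.5-fold and 6.82-fold on their brightest probe sets, Nr4a2 5.02-fold, Id3 3.79-fold, Klf4 3.50-fold, Ier3 2.76-fold and Id1 2.06-fold. Other tested probe sets of Nr4a3 rose by only 0.53 (chip A) and 1.04 (chip B) on the log2 scale, against 3.53 for the one used here. The other Nr4a2 probe set rose by 1.98. The Nr4a3 and Nr4a2 probe sets used for these folds measured 5.88 and 6.62 (log2) without forskolin. They passed the filter through their forskolin arrays alone, so that their folds share the limit given for Fos. Of the 22 other genes 16 rose and 1 fell, with a median of 0.65 (log2). Fos measured 16.4-fold, and Dusp1 reached 4.17 (log2) on its other probe set, which also passed through its forskolin arrays alone; these sizes were not tested against each other. Klf6, named after its values were seen, was the gene that fell (-1.12). Zfp36 and Maff stood on this list as well as on the ones above, as did Srf.

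**Figure D5:**
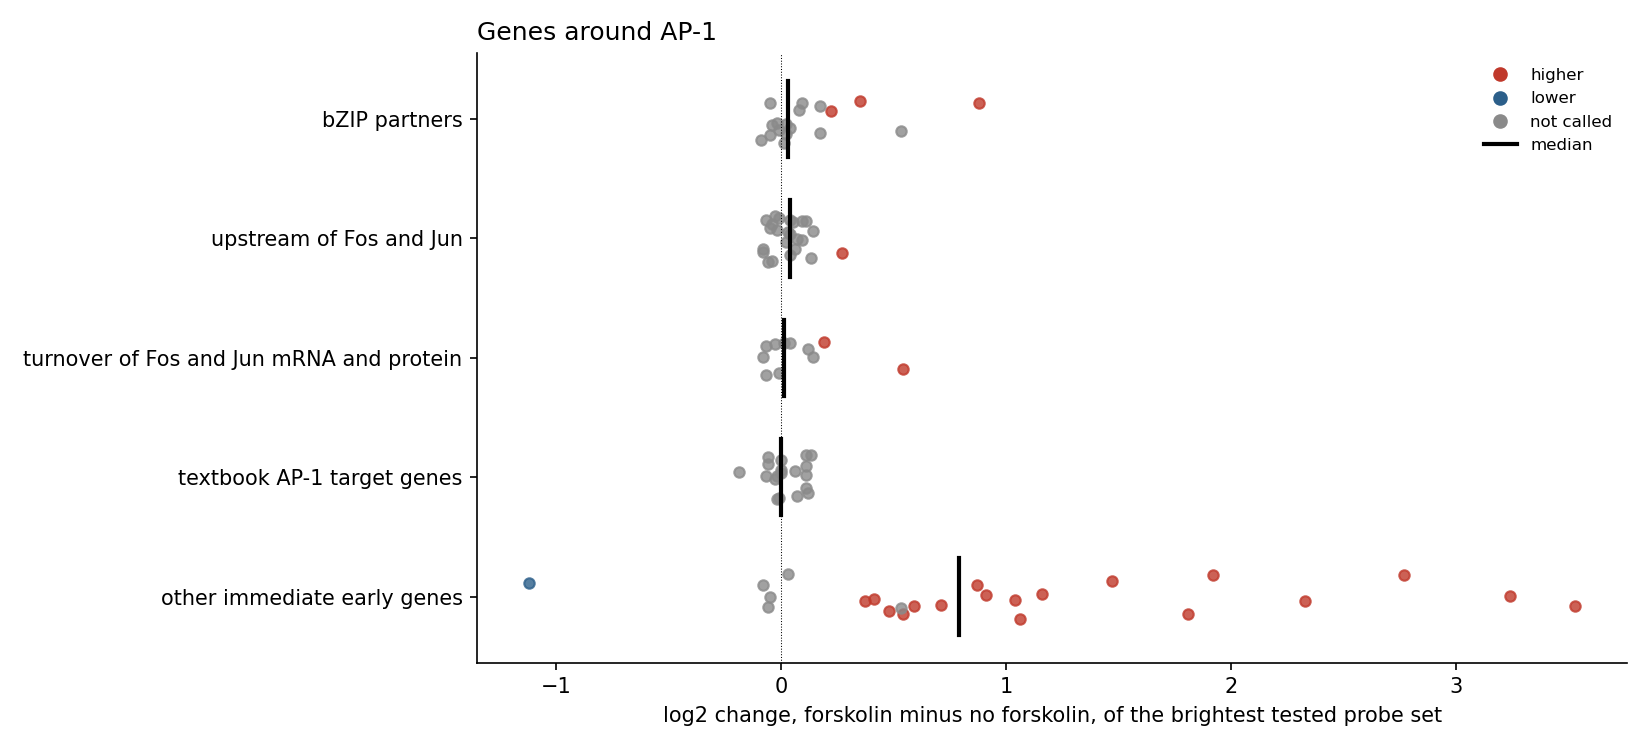
Change with forskolin (x axis, log2) of each tested gene in 5 lists, through its brightest tested probe set; red points were called higher, blue lower and grey not called, and the black bar is the median of the list. The other immediate early genes reach 3.53 with a median of 0.79, while the medians of the other 4 lists lie between 0 and 0.04.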

How the data were processed

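The authors deposited a table of log2 expression values for each chip, with a row per probe set and a column per array. The log base was read from the values: none exceeds a 16-bit scanner in base 2, whereas 3063 (chip A) and 115 (chip B) would as natural logarithms. The steps for background, probe summary and scaling are not given in the labels. Array medians lay within 0.1 (log2), so the scaling was kept. Symbols came from the GEO platform annotation, updated by gene number to RefSeq (12748 of 15866 probe sets matched on chip A, 7524 of 15276 on chip B).

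Each chip was fitted with limma 3.58.1 in R 4.3.3 (lmFit, eBayes with an intensity trend, two-sided), adjusted by Benjamini-Hochberg over its tested probe sets; members below the filter take their values from the fit with no filter. The code was tested on simulated data with the level and spread of each chip. Changes of 0.5 and 1 (log2) were recovered in 90.2% and 99% of cases on chip A. On chip B the shares were 38.8% and 79.8%. The members and lists were chosen with earlier results of these data known. Each list gene was taken at its brightest tested probe set, preferring chip A. All members were named; of each list the called genes (at most 8, by smallest p), filled to 2. Alternatives were no filter, a filter at the 50th percentile, quantile normalization, median centring, eBayes without a trend, the replicate number as a block, and leaving out each array. No control probe sets were in the tables, and the number of arrays limits precision.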

Additional observations from a re-analysis of the deposited data

How the results depend on the processing

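The members were recomputed under 120 combinations of probe set and alternative, of which 111 kept direction and side of the threshold; for members below the filter these were run with no filter, chosen after seeing the data. Fos 1375043_at, Fosl1, Junb and Fosl2 on chip A, and Fosb with no filter, were called under every alternative that could test them. The 2 lower calls on chip A became 1 with no filter, 0 under the stricter filter, which leaves both Jun probe sets out, and 0 with the replicate block; leaving out 1 array gave 1 to 2. Jun 1374404_at was -0.27 but not called with no filter or the replicate block (limma adjusted p = 0.0547 and 0.105) and between -0.32 and -0.21 without 1 array. Jun 1389528_s_at was -0.36 with the replicate block (0.0843). The labels do not say whether the replicate numbers pair arrays. Deviations of same-numbered arrays correlated at 0.00337 on chip A and 0.197 on chip B, and with only 2 pairs this cannot decide it. Chip B had 0 calls among members, 1 under quantile normalization (Fosl2, 0.69) and 0 to 1 without 1 array, with Fosl2 at 0.57 to 0.76. Jund changed sign without 1 array, to 0.005 (1387762_s_at, chip A, without forskolin replicate 2) and, on chip B, ran from -0.0051 to 0.31 (1393138_at). Of the lists, the upstream genes called higher went from 1 to 0 with the replicate block and 0 to 1 without 1 array, and the turnover genes from 2 to 1 without a trend, to 1 with the replicate block and 1 to 2 without 1 array. Over all probe sets, the 140 lower calls on chip A became 277 with median centring, 46 with the replicate block and 83 to 192 without 1 array, and the 16 higher calls on chip B became 27 under quantile normalization and 10 to 41 without 1 array. A fit without 1 array leaves a lone array that is assumed to vary like the other group. Beyond the filters and the fewer arrays, the cause of each change was not tested.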
